A study of Mus musculus with 12 samples.

Results

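The gene-by-gene relation of 2 histone marks, H3K9me3 and H3K27me3, was examined on the X chromosome of wild-type mouse epiblast stem cells (EpiSCs). All genes with a value for both marks were taken, 719 of the 952 X-linked genes listed. The other 233 had no value in either mark and were shorter, with a median length of 2867 bases against 19657 bases for the 719. The cells were female, labelled as stage E6.5, from a cross of C57BL6/J with F1 animals of JF1 x C57BL6/J, with the genotype Smchd1+/+ Xist deltaA/+. The Xist deltaA allele was carried by every sample, so no library came from cells with both Xist copies intact. H3K9me3 was precipitated with the mouse monoclonal antibody CMA318 and H3K27me3 with CMA323, and each mark was sequenced once. The series further holds the same 2 marks in MD1 EpiSCs, with the genotype Smchd1 MD1/MD1 Xist deltaA/+ and deficient for SmcHD1, and in MD1 and wild-type (WT) embryonic fibroblasts (MEFs) of the same genotypes, sex and cross, labelled E13.5. Whether a library came from 1 line or from pooled embryos is not stated. In all there were 12 libraries, 8 of them ChIP and 4 input. Histone marks on X-linked genes say nothing of marker expression, so the labelled cell type was not checked.

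H3K27me3 is laid down by the Polycomb complex PRC2 and bound by PRC1, and it marks genes held silent in a reversible way. H3K9me3 is laid down by enzymes such as SUV39H1 and SETDB1 and bound by HP1 proteins, and it marks condensed heterochromatin. On the inactive X, Xist RNA brings in the Polycomb complexes, and in human cells the 2 marks are known to occupy alternating territories. SmcHD1, the SMC-family protein that the series is about, is known to be recruited to the inactive X downstream of PRC1.

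Each value is the log2 enrichment of ChIP over input for a gene, as deposited. A value of 0 is called the input level here, and 1 on this scale is 2-fold. The H3K9me3 and the H3K27me3 values carry an unknown constant each, so their difference, H3K9me3 minus H3K27me3, was read relative to its median over the 719 genes, −2.26. This centred difference is above 0 where a gene leans to H3K9me3 more than the median gene does. Whole numbers behind the values (see the processing) summed to 188886 for H3K9me3 and 1560574 for H3K27me3, over an input of 182193, with medians per gene of 70, 466 and 78. Intervals given below are 95% counting intervals and cover counting error only. With 1 library per mark no test was possible, and no difference has a replicate check. A larger share of cells or of X copies with a mark cannot be told apart from more of the mark on each copy. The labels do not say from which X the values come.

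Most genes lay at least 2-fold from the median difference, to 1 side or the other. At a centred difference of at least 1, 283 genes (39.4%) were H3K9me3-weighted, and at −1 or lower 272 (37.8%) were H3K27me3-weighted, while 164 (22.8%) lay between. The counting interval lay above the median difference for 279 of the 283 and below it for 263 of the 272. Without centring, the deposited difference was at least 1 in 152 genes and at most −1 in 455. H3K9me3 ran from −3.34 to 4.92 with a median of 2.03, and H3K27me3 ran from −3.63 to 5.83 with a median of 4.17. The difference of the 2 marks had a range from −8.21 to 7.92. Set against each mark's own median, 302 genes (42.0%) were above it in H3K9me3 only, 302 in H3K27me3 only, 57 (7.93%) in both and 58 (8.07%) in neither. The 2 counts of 302 are equal by construction, because each mark was split at its own median. Centring on the median difference likewise balances the 2 sides, so the balance is not a result.

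The relation was not a straight trade-off. Where H3K9me3 was under 2, H3K27me3 stayed near its ceiling: its median was 4.62 in the 45 genes with H3K9me3 under −1, 4.75 in the 110 genes from −1 to 0, 4.60 in the 104 genes from 0 to 1 and 4.37 in the 95 genes from 1 to 2. H3K27me3 then dropped over the upper end of the H3K9me3 scale. Its median was 4.06 in 133 genes with H3K9me3 from 2 to 3, 2.32 in 196 genes from 3 to 4, and −0.30 in 36 genes at 4 or more. The spread widened as well, with an interquartile range of 0.27 from −1 to 0 and 2.80 from 3 to 4. Pearson's r across the 719 genes was −0.62 and Spearman's rho −0.77. Among the 259 genes with H3K9me3 under 1 they were 0.19 and −0.10, and among the 460 genes at 1 or more −0.69 and −0.81. These correlations describe genes that share an input and lie beside each other, and they carry no p. The highest H3K9me3 genes had the fewest reads, with a median input number of 22 at 4 or more, so single values there are imprecise.

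**Figure D1:**
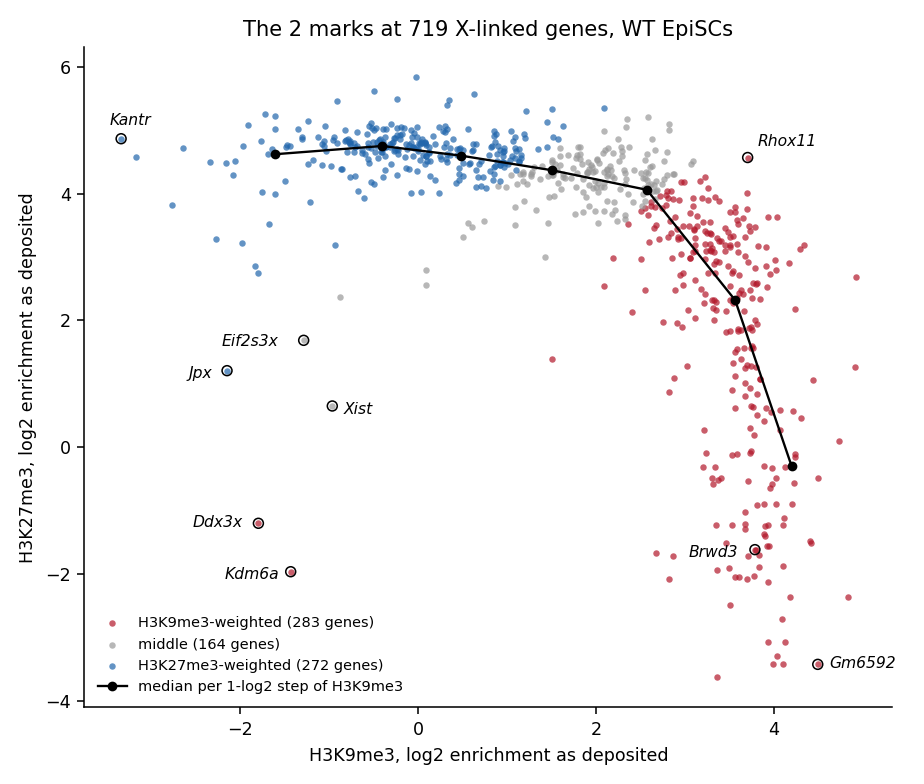
H3K27me3 (vertical axis) against H3K9me3 (horizontal axis), both log2 enrichment as deposited, 1 point per gene for 719 genes, coloured by class, with named genes circled. The black line joins the median H3K27me3 of 7 classes of H3K9me3 level: it stays between 4.37 and 4.75 up to an H3K9me3 value of 2 and drops to −0.30 at the right end, and a few genes at the lower left, among them Kdm6a and Ddx3x, are low in both.

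The overlap of ranks was tighter at the H3K9me3-rich end. Of the 72 genes highest in H3K9me3, 39 (54.2%) were among the 72 lowest in H3K27me3 and 0 among the 72 highest. Of the 180 genes highest in H3K9me3, 138 (76.7%) were among the 180 lowest in H3K27me3. Of the 72 genes lowest in H3K9me3, 15 (20.8%) were among the 72 highest in H3K27me3 and 2 among the 72 lowest. With wider sets, 115 (63.9%) of the 180 lowest in H3K9me3 were among the 180 highest in H3K27me3, and 9 were among the lowest. A level at least 2-fold over input was reached by H3K9me3 in 460 genes (64.0%) and by H3K27me3 in 626 (87.1%). The 370 genes over that level in both marks were the most frequent class, 256 had H3K27me3 only, and 90 had H3K9me3 only, with medians of 3.82 for H3K9me3 and −0.90 for H3K27me3 in those 90.

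Only 3 genes missed the 2-fold level in both marks, and all 3 are known to be expressed from the inactive X of mouse. Kdm6a (mm9 X, 17739793 to 17856484), which encodes an H3K27 demethylase, had an H3K9me3 value of −1.43 (−1.79 to −1.09) and an H3K27me3 value of −1.97 (−2.27 to −1.67), with both intervals under the input level. At Ddx3x (X, 12858148 to 12871109), which encodes an RNA helicase, H3K9me3 was −1.80 and H3K27me3 −1.20. Xist (X, 100655712 to 100678572), whose RNA coats the inactive X, stood at −0.97 for H3K9me3 and 0.65 for H3K27me3. The genes beside Kdm6a were not low in H3K27me3. Its neighbours Fundc1 and 4930578C19Rik had H3K27me3 values of 4.03 and 3.87, and the next gene, Chst7, a sulfotransferase gene, had an H3K9me3 value of 3.06. In the other cells Kdm6a was also low, with H3K27me3 values of −2.57 in MD1 EpiSCs, −2.45 in MD1 MEFs and −1.76 in WT MEFs. Because both marks were low, Kdm6a and Ddx3x counted as H3K9me3-weighted, at centred differences of 2.79 and 1.66. Their H3K9me3 was under the input level as deposited. The interval at Ddx3x, −0.43 to 3.39, includes the median difference, on numbers of 4 for H3K9me3 and 12 for H3K27me3.

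No gene was near the top of both marks: of the 180 genes highest in H3K9me3, 0 were among the 180 highest in H3K27me3. Genes with an input number of at least 20 were ordered by the poorer of their ranks in the 2 marks, their joint rank. Rhox11, a reproductive homeobox gene, had the highest joint rank, with 3.70 for H3K9me3 and 4.57 for H3K27me3. Cox7b, a cytochrome oxidase subunit gene, had 3.06 and 4.46, and 9530027J09Rik had 2.80 and 4.65. Each of these 3 lay above the median of both marks, and their input numbers were small, from 28 to 42.

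The largest leaning to H3K9me3 among the 574 genes with an input number of at least 20 was at Gm6592 (X, 8421120 to 8426733), with an H3K9me3 value of 4.49 and an H3K27me3 value of −3.43. Ssxb5 (X, 8380817 to 8386512), of the testis-expressed Ssx family, followed with 4.10 and −3.43, then Gm362 (3.99 and −3.43), Gm14459 (4.03 and −3.30) and Ssxb2 (3.36 and −3.63). The H3K27me3 number behind these 5 genes was 1 or 2, so their intervals are wide: the centred difference of Gm6592 was 10.18 with an interval of 7.67 to 15.49. Gm16404, Ssxb8, Zfp449, Ftsj1 and Wdr44 completed the 10. The best-measured was Wdr44 (X, 23270243 to 23383127), which encodes a WD-repeat protein that binds Rab11, with an H3K9me3 value of 3.77 (3.61 to 3.93) and an H3K27me3 value of −2.03 (−2.51 to −1.58). Ftsj1, a tRNA methyltransferase gene, had 4.42 and −1.51, and Zfp449, a zinc finger gene, had 4.11 and −1.87.

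At the other end stood Kantr (X, 148729367 to 148762036), a long non-coding RNA gene beside Kdm5c, with an H3K9me3 value of −3.34 and an H3K27me3 value of 4.87. Gpr173 (X, 148779189 to 148802654), an orphan receptor gene close by with 1 measured gene between them, had −3.18 and 4.57. Tsx, a gene of the X-inactivation centre, had −2.64 and 4.72. Here the H3K9me3 number was the small one, 3 at Kantr and Gpr173 and 2 at Tsx. A better-measured gene lay close behind: Ammecr1 had an H3K9me3 value of −1.77 (−2.52 to −1.10) and an H3K27me3 value of 4.83 (4.65 to 5.01). Slc7a3, a transporter of cationic amino acids, Gm8817, Apoo-ps, 5730405O15Rik and Psmd10, which encodes a proteasome assembly chaperone, were also among the 10 lowest, with H3K27me3 values from 3.82 to 5.02.

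The promoters of the 2 genes at each end are shown because they are the sequences at the extremes of the difference, with every CG dinucleotide in capitals. They are RefSeq sequences of the build GRCm38.p6, 250 bases before to 50 after the start of the gene, on the gene's own strand. Gm6592 lies on the plus strand at chrX:8843744-8844043, Ssxb5 on the plus strand at chrX:8803441-8803740, Kantr on the minus strand at chrX:152327444-152327743 and Gpr173 on the minus strand at chrX:152368669-152368968.
Gm6592: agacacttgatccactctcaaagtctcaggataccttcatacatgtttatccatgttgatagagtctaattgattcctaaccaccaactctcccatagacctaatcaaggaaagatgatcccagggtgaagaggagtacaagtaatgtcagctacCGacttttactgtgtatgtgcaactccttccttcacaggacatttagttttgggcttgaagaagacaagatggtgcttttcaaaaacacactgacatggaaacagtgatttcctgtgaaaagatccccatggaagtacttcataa
Ssxb5: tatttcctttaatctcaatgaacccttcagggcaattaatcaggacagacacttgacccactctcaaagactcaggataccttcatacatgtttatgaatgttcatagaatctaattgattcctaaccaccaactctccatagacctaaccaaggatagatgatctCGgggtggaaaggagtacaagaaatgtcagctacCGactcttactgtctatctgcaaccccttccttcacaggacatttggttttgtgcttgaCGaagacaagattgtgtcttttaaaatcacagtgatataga
Kantr: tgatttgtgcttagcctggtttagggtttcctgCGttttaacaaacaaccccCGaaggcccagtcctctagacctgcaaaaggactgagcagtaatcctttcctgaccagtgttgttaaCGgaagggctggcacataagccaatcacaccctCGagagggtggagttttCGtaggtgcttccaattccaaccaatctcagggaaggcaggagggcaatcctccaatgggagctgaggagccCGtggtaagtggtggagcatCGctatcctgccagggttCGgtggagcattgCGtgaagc
Gpr173: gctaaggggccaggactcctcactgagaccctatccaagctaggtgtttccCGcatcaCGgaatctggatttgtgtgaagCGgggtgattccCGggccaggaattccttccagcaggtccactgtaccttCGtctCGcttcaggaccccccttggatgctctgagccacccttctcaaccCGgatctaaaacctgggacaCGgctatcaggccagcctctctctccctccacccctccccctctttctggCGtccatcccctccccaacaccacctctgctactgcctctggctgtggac

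Both H3K9me3-weighted promoters held few CG dinucleotides, 1 in Gm6592 and 3 in Ssxb5, against 9 in each of Kantr and Gpr173, and their GC content was 40.7% and 40.0% against 53.3% and 59.7%. Gm6592 and Ssxb5 are close copies here: 226 of 254 aligned promoter bases (89.0%) were identical, with a longest shared run of 29 bases. The Ssx genes, the Rhox genes and other multigene families can share reads between copies, so single values in them are uncertain. Over the whole set the contrast in CG content was slight. Of 600 genes matched to a promoter (83.4%), a CpG-dense one, with an observed-over-expected ratio of at least 0.6, was found at 39.3% of H3K9me3-weighted, 40.1% of middle and 43.3% of H3K27me3-weighted genes. Over the 600 matched genes together the share was 41.0%. In the wider set of all 1046 X-linked genes with a RefSeq promoter, 28.0% had a CpG-dense promoter and 92.6% had at least 1 CG. Length differed more, with medians of 14931, 16941.5 and 25461.5 bases in the same classes, as did the input number behind the values, 55, 83 and 123.5. Spearman's rho across genes was −0.18 between the difference and length, −0.21 with the input number, −0.06 with promoter CpG ratio and 0.03 with the number of genes within 1 Mb.

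In gene order the leaning to one mark or the other came in long blocks. Adjacent genes lay on the same side of the median difference in 90.1% of 718 pairs, and Pearson's r of the difference between adjacent genes was 0.91. It was 0.48 at 10 genes apart, 0.23 at 20 and 0.01 at 50. The median absolute step between adjacent genes was 0.40 where their starts lay under 20 kb apart and 1.57 at 500 kb or more. Genes formed 72 runs on 1 side of the median. The 14 runs of at least 15 genes took in 533 genes (74.1%), and 26 runs were single genes.

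H3K9me3-side blocks had similar H3K9me3 and very different H3K27me3. The longest ran over 80 genes from Chst7 to Apln (X, 19636696 to 45388029), with medians of 3.50 for H3K9me3 and 3.0 for H3K27me3. The 67 genes from Mycs to Otc (5044022 to 9898150) had 3.50 and 2.34, and the 39 genes from Taz to Tsga8 (71528057 to 82450389) had 3.37 and 2.16. In the 34 genes from A630033H20Rik to Pcdh19 (104344266 to 130223532), a gene-poor stretch of 25.9 Mb, they were 3.65 and 0.61. The 26 genes that begin at Cxx1a had 3.43 and 2.95, and the 23 genes from F9 to BC023829 had 3.17 and 3.10. Between these 6 blocks the H3K9me3 median thus moved within 3.17 to 3.65, while that of H3K27me3 lay anywhere from 0.61 to 3.10.

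H3K27me3-side blocks showed the reverse, a steady H3K27me3 near the top of its scale. The 58 genes from Hsf3 to Tsix (93502206 to 100680296) had medians of −0.09 for H3K9me3 and 4.72 for H3K27me3, and the 45 from Nrk to Amot (135448969 to 141922182) had −0.41 and 4.75, the lowest leaning of the long blocks at a median centred difference of −2.94. The 41 genes from Smpx to Fancb (154136905 to 161435204) stood at 0.24 and 4.65, the 39 from Vma21 to Tex28 at 0.46 and 4.66, the 28 from Alas2 to Klf8 at 0.45 and 4.66, the 20 from Gpm6b to G530011O06Rik at 0.05 and 4.71, the 18 from Gm595 to Phf6 at 0.16 and 4.48, and the 15 from Jpx to 5330434G04Rik at −0.47 and 4.69. All 8 medians of H3K27me3 lay within 4.48 to 4.75, and those of H3K9me3 within −0.47 to 0.46. Only Xist, with a centred difference of 0.64 (−0.04 to 1.27), separates the block that ends at Tsix from the one that begins at Jpx. With 1 gene per overlapping group, the longest H3K27me3-side run was 72 genes.

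**Figure D2:**
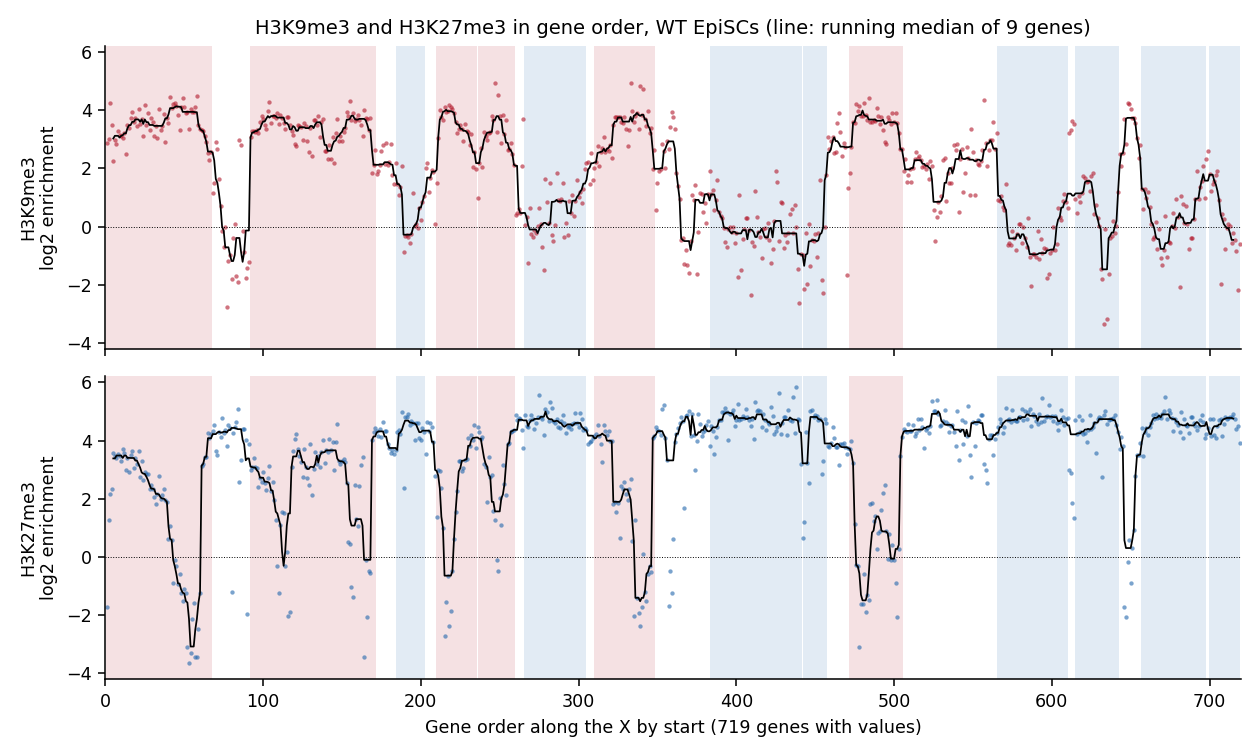
H3K9me3 (upper panel) and H3K27me3 (lower panel), log2 enrichment as deposited, for 719 genes in order of their start along the X, with a running median of 9 genes and shading for the 14 runs of at least 15 genes (red H3K9me3 side, blue H3K27me3 side). H3K9me3 alternates between plateaus above 3 and stretches near 0, while H3K27me3 is mostly above 4 outside the red blocks, apart from short dips, and falls to the input level or under it in parts of most red blocks, with 72 genes in all at or under 0.

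H3K27me3 was at the input level or under it in patches, nearly all of them rich in H3K9me3. It was at or under 0 in 72 of the 719 genes (10%). Of the 72, 70 were at least 2-fold over input in H3K9me3, against 64.0% of all genes, Kdm6a and Ddx3x being the other 2. The whole interval lay under 0 for 37 of the 72. They sat together, 64 of them adjacent to another. Adjacent genes were alike in H3K27me3 over the whole set too, at a Pearson's r of 0.85. The 72 genes had a median H3K27me3 of −1.27 and a median H3K9me3 of 3.83, with a median length of 8828 bases and a median input number of 38.5. H3K9me3 at or under 0 was more frequent, at 155 genes (21.6%). In the other cells, the same 72 genes had median H3K27me3 values of 2.71 in MD1 EpiSCs, 1.67 in MD1 MEFs and 0.29 in WT MEFs, each of which includes that library's own constant, and 10 of 68, 10 of 71 and 28 of 72 with a value were at or under 0. Over all of the 719 genes with a value in those cells the shares at or under 0 were 2.12%, 18.7% and 6.61% in the same order.

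The sharpest patch, picked out after its values were seen, held the Ssx genes. Over the 18 genes from Wdr13 to 4930402K13Rik (X, 7700427 to 8683468) H3K9me3 ran from 3.31 to 4.49 and H3K27me3 from −3.63 to −0.11, under the input level at all 18 as deposited and with the whole interval under it at 10. The H3K27me3 numbers of the 18 genes added up to 124, against 656 for the input. The stretch holds Porcn, which encodes the acyltransferase that modifies Wnt proteins, and Ebp, an enzyme gene of cholesterol synthesis, as well as the 6 Ssx genes. Directly after it, Lancl3 had an H3K27me3 value of 3.14 (2.99 to 3.29) with H3K9me3 at 3.30 (3.14 to 3.46), just under the lowest of the 18 genes before. The 7 genes from Lancl3 to Otc had H3K27me3 from 3.14 to 4.25 and H3K9me3 from 2.27 to 3.30. H3K27me3 therefore had an edge where H3K9me3 had none of like size. On the other side the approach was gradual, with H3K27me3 from 0.59 to 2.80 in the 15 genes before Wdr13.

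At each of the 5 largest steps in the difference, H3K27me3 moved further than H3K9me3. With medians of the 5 genes before and after a point, the step of 8.91 between Ubqln2 and Kctd12b was made of 2.63 in H3K9me3 and −4.69 in H3K27me3. Between Gm6592 and B630019K06Rik it was −7.17 (−0.73 and 6.43), between 4930595M18Rik and Dmd, the dystrophin gene, −6.99 (−1.57 and 4.90), and between Tbx22, a T-box gene, and 2610002M06Rik 6.65 (1.26 and −5.33). The medians were taken separately for each mark, so the parts need not add up to the step. The 2 genes named mark the middle of the 10 genes, and the jump need not lie between them. The difference was −1.22 at Ubqln2 and −2.03 at Kctd12b, 7.92 at Gm6592 and 5.99 at B630019K06Rik, and 2.44 at Tbx22 and 4.48 at 2610002M06Rik. Between 4930595M18Rik and Dmd it went from 3.88 to −2.13.

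Single genes also stood apart from the 5 genes on each side of them. Tmem29 and Lrch2 formed the end of a 4-gene H3K9me3 island with the serotonin receptor gene Htr2c and the interleukin receptor gene Il13ra2. Their H3K9me3 values were 3.53 and 3.63, against 0.65 at Amot before and 0.96 at Alas2 after the island. Lpar4, a lysophosphatidic acid receptor gene, had an H3K9me3 value of −1.68 where its neighbours had a median of 2.80, with H3K27me3 close to theirs, 3.52 against 3.75. Tenm1, a large teneurin gene measured on 2691 input reads or a multiple, differed in the other mark: its H3K27me3 was 3.44 against 0.49 as the median of its neighbours, its H3K9me3 3.10 against 3.70. These single genes were chosen after their values were seen.

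The X-inactivation centre leaned to H3K27me3. Of 10 listed genes 9 were H3K27me3-weighted, against 37.8% of all genes, and 0 were H3K9me3-weighted. Cdx4, a homeobox gene, had the highest H3K27me3 value of the 719 at 5.83, on few reads, and Rlim, whose product is a ubiquitin ligase that activates Xist, had an H3K27me3 value of 5.04 (4.61 to 5.50). Values were lower over Tsix, Xist, Jpx and Ftx between them, but not over Tsx, which had an H3K27me3 value of 4.72. Tsix, the antisense gene of Xist, had an H3K27me3 value of 3.19 (3.05 to 3.34), Xist 0.65 (0.33 to 0.96), Jpx 1.21 (0.83 to 1.59) and Ftx 3.22 (3.05 to 3.39), while Chic1 before them had 4.75 (4.55 to 4.95). Tsix overlaps Xist by position, so these values share reads. H3K9me3 as deposited was under the input level at each of the 10, from −2.64 at Tsx to −0.03 at Cdx4. At Cdx4 and Nap1l2 (−0.24) this is imprecise, with H3K9me3 numbers of 3 and 1 over inputs of 13 and 5. Of 19 genes within 1 Mb of Xist, 18 were H3K27me3-weighted, at medians of −0.30 for H3K9me3 and 4.72 for H3K27me3. Farther out there was no steady trend. Among the 69 genes at 1 to 5 Mb, 15 were H3K9me3-weighted and 45 H3K27me3-weighted, among the 43 genes at 5 to 10 Mb 16 and 18, among the 19 genes at 10 to 20 Mb 10 and 1, among the 287 genes at 20 to 50 Mb 87 and 113, and among the 281 genes beyond 155 and 77.

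**Figure D3:**
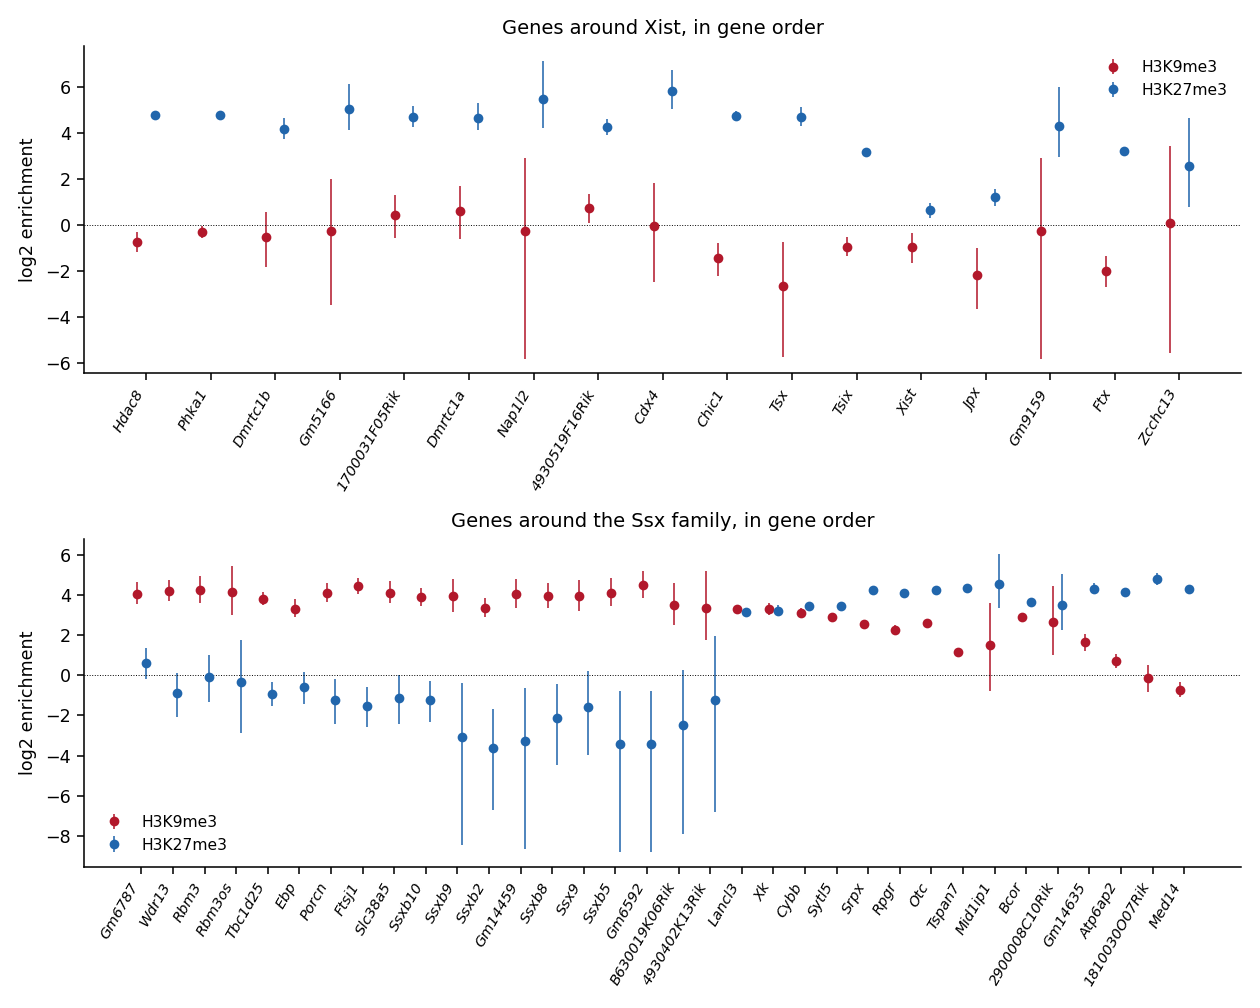
H3K9me3 (red) and H3K27me3 (blue), log2 enrichment as deposited with 95% counting intervals as bars, for consecutive genes from Hdac8 to Zcchc13 around Xist (upper panel) and from Gm6787 to Med14 around the Ssx genes (lower panel). H3K27me3 dips at Xist (0.65) and Jpx (1.21) while H3K9me3 stays under the input level, and in the lower panel H3K27me3 moves from −1.23 at 4930402K13Rik to 3.14 at Lancl3 while H3K9me3 is 3.35 and 3.30.

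Genes that escape X inactivation in mouse were low in H3K9me3, with a median of −1.36 over 12 listed genes and 1 of them, Utp14a, at least 2-fold over input, against 64.0% of all genes. Their H3K27me3 values covered a wide range, from −1.97 to 4.52. Kdm5c, an H3K4 demethylase gene, had −1.81 for H3K9me3 and 2.75 for H3K27me3, Eif2s3x, a translation initiation factor gene, −1.29 and 1.69, and the long non-coding RNA gene Firre −0.88 and 2.37. Mid1, at the pseudoautosomal boundary, had −0.86 and 4.39, and Pbdc1 −2.28 and 3.29. Xist, Jpx and Ftx are in the X-inactivation centre list as well. Kdm5c and Firre lie in H3K27me3-side blocks with low H3K9me3 medians, 0.45 and 0.16. The 5 genes on each side had a median H3K9me3 of −0.24 at Kdm5c and 0.42 at Firre, but 0.78 at Pbdc1 and 2.90 at Kdm6a. The low H3K9me3 of the list was not separated from the position of its genes. H3K27me3-weighted were 6 of the 12, against 37.8% of all genes, and H3K9me3-weighted 2, Kdm6a and Ddx3x, against 39.4%. Genes commonly used as examples of silencing did not lean one way: 2 of 8 were H3K9me3-weighted and 3 H3K27me3-weighted, against the same shares of all genes. Pgk1, the phosphoglycerate kinase gene, had 3.56 for H3K9me3 and 3.79 for H3K27me3, Hprt, of purine salvage, 2.02 and 3.54, and Huwe1, which encodes a ubiquitin ligase, 0.44 and 4.62.

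Genes that encode chromatin proteins were found on both sides, at a median centred difference of −1.20. Of 19, 6 were H3K9me3-weighted and 10 H3K27me3-weighted, against 39.4% and 37.8% of all genes. Brwd3, a bromodomain gene, had 3.79 for H3K9me3 and −1.62 for H3K27me3. Suv39h1, which encodes a writer of H3K9me3, had 3.56 and 0.62, and Hdac6, a deacetylase gene, had 3.85 and 2.34. The cohesin subunit genes differed, Stag2 with 3.65 and 2.42 and Smc1a with 0.03 and 4.80. Hdac8, close to Xist, had −0.73 and 4.79, and Ogt, the O-GlcNAc transferase gene, −0.45 and 4.56. Developmental transcription factor genes leaned to H3K9me3 in 8 of 15 cases and to H3K27me3 in 3, against 39.4% and 37.8% of all genes. Their median centred difference was 1.52. Tbx22 had 3.57 and 1.13, Gata1, a regulator of red cell development, 2.90 and 1.95, and Foxp3, of regulatory T cells, 3.71 and 3.50, whereas Zfx, a zinc finger gene, had −0.40 and 4.66. Blood and immune genes were H3K9me3-weighted in 9 of 15 cases, against 39.4% of all genes, at a median centred difference of 1.75. Was, of the actin cytoskeleton of blood cells, had 4.44 and 1.05, and the Toll-like receptor gene Tlr7 had −0.77 and 4.81. Was, Gata1, Foxp3 and Cybb lie in the block from Mycs to Otc, and 63 of the 67 genes up to 10 Mb were H3K9me3-weighted. Gata1 and Foxp3 are in both the developmental and the blood list. The leaning of a list was not separated from the position of its genes.

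The testis and placenta families differed in how they leaned. Over all genes the shares were 39.4% H3K9me3-weighted and 37.8% H3K27me3-weighted. All 6 Ssx genes with a value were H3K9me3-weighted, with H3K27me3 at or under input in all 6 and a median centred difference of 8.78. Of 10 Rhox genes with a value, out of 30 listed, 8 were H3K9me3-weighted, but their median of 1.46 came with H3K27me3 values from 3.19 to 4.57. These Rhox genes lie in the block from Chst7 to Apln, and 43 of the 46 genes from 30 to 40 Mb were H3K9me3-weighted. Mage genes fell into separate groups, Mageb16 (3.98 and −0.58), Magea8 (4.23 and −0.16) and Mageb18 (3.77 and 0.63) leaning to H3K9me3 and the other 5, among them Maged1 (1.09 and 4.90), to H3K27me3, with a median of −1.43 that turned to 2.23 over the 6 genes with an input number of at least 20. The only Xlr gene with a value had 3.67 and 1.01. Of the Bex and Tceal genes, 0 of 9 leaned either way, at centred differences between −0.58 and 0.85. They were imprecisely measured, with input numbers from 2 to 13 and an interval as wide as −5.96 to 2.16 at Bex2. Genes derived from retrotransposon gag had 3 of 9 on the H3K9me3 side and 5 on the H3K27me3 side, with Ldoc1 at 3.26 and 2.74 and Rgag1 at −1.62 and 5.22.

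**Figure D4:**
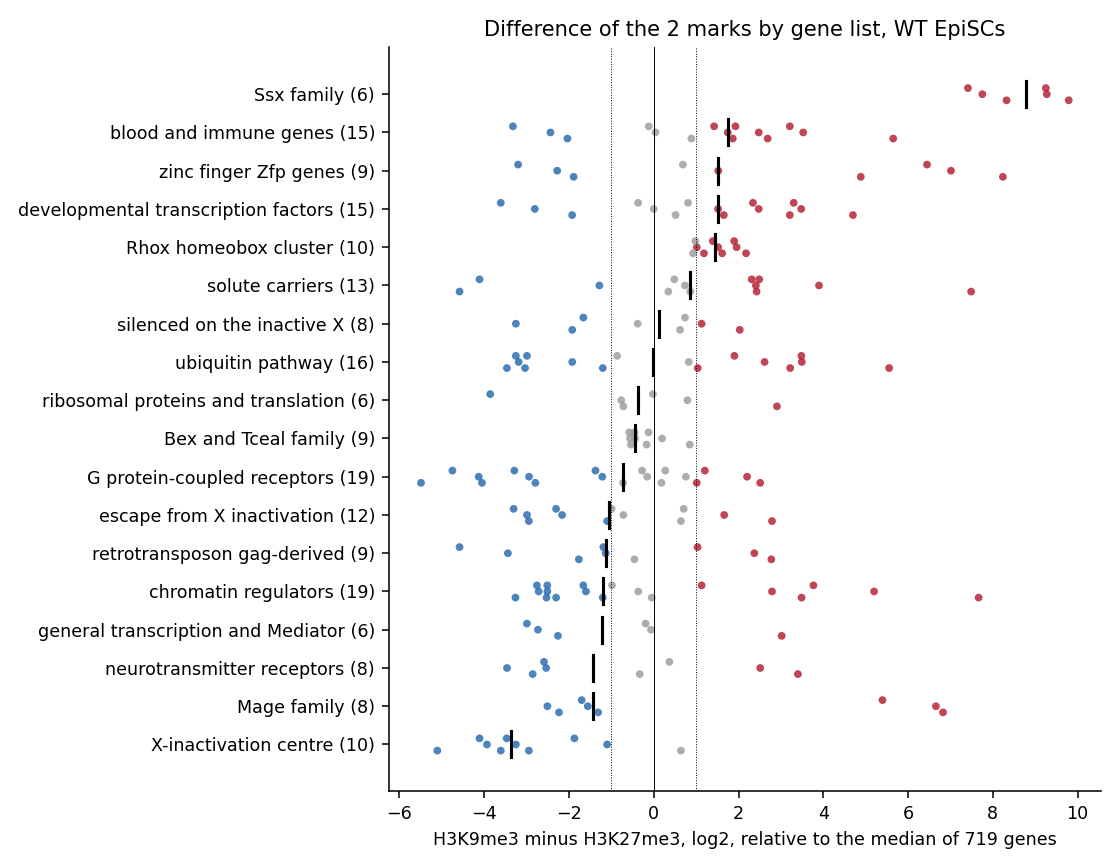
Difference of the 2 marks (H3K9me3 minus H3K27me3, log2, relative to the median of 719 genes; dotted lines at −1 and 1) for each listed gene with a value, by gene list with the number of genes in brackets; 1 point per gene, black bars are list medians. The Ssx family lies apart at 7.41 to 9.79, the Bex and Tceal genes stay between −0.58 and 0.85, and most other lists spread over both sides.

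The other functional lists spread over both sides. Ubiquitin pathway genes were 7 of 16 on each side, with Cul4b, a scaffold of ubiquitin ligases, at 3.80 and 0.51 and the deubiquitinase gene Usp9x at −1.19 and 4.53. Zinc finger genes were H3K9me3-weighted in 5 of 9 cases and H3K27me3-weighted in 3, with a median of 1.52. Solute carriers were 6 and 3 of 13, from Slc38a5, a glutamine transporter gene of the Ssx stretch, at 4.11 and −1.11 to Slc7a3 at −2.34 and 4.50. G protein-coupled receptor genes were 4 and 9 of 19, and neurotransmitter receptor genes 2 and 4 of 8, with the glutamate receptor gene Gria3 at 3.63 and 2.49 and the GABA receptor gene Gabra3 at −0.23 and 4.62. Ribosomal and translation genes were 1 and 1 of 6, Rpl39 at 3.67 and 3.02 and Rps4x at −0.50 and 5.61. General transcription genes were 1 and 3 of 6, Taf9b at 3.91 and 3.15 and the Mediator gene Med14 at −0.71 and 4.27. A share near the 39.4% and 37.8% over all genes says nothing particular about a list.

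The leaning seen in WT EpiSCs was found again, at reduced size, in the WT MEF libraries, which the classes did not use. Genes H3K9me3-weighted in WT EpiSCs had a median centred difference of 3.43 there and of 2.07 in WT MEFs (282 genes with a value), where 65.2% were again H3K9me3-weighted, against 28.7% of all 711 genes. Genes H3K27me3-weighted in WT EpiSCs had −2.51 there and −0.81 in WT MEFs, with 36.4% H3K27me3-weighted, against 17.9% of all. In MD1 EpiSCs the same classes had medians of 0.49 and −0.27, and in MD1 MEFs 0.64 and −0.42. Pearson's r across genes between the WT EpiSC difference and that of other cells was 0.79 with WT MEFs (711 genes), 0.52 with MD1 EpiSCs (708) and 0.29 with MD1 MEFs (713), with rho of 0.75, 0.40 and 0.31. Genes are not replicates, and neighbouring ones were alike, so these values carry no p. The SD of the difference across genes was 3.33 in WT EpiSCs and 1.74 in WT MEFs over the same 711 genes, and 1.66 in MD1 EpiSCs and 1.77 in MD1 MEFs. The 2 marks themselves were related at r = −0.62 in WT EpiSCs, −0.20 in MD1 EpiSCs, 0.39 in MD1 MEFs and −0.45 in WT MEFs. Spearman's rho was −0.77, 0.03, 0.30 and −0.52 in the same order, so the negative sign in MD1 EpiSCs was not seen by rank. No test of these differences between cells was possible with 1 library each.

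**Figure D5:**
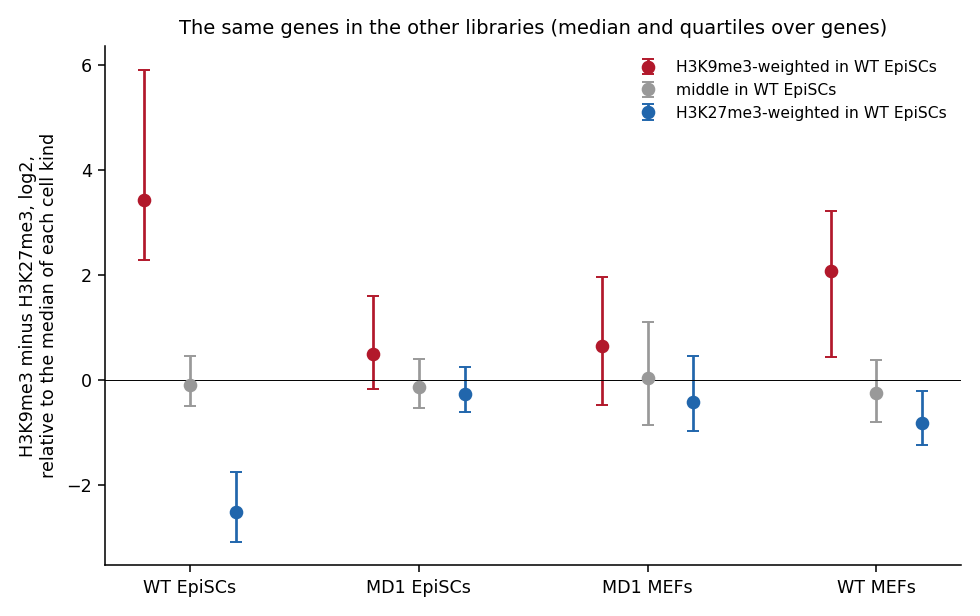
Median and quartiles over genes of the difference of the 2 marks (H3K9me3 minus H3K27me3, log2, relative to the median of each kind of cell) for genes classed in WT EpiSCs as H3K9me3-weighted (red), middle (grey) or H3K27me3-weighted (blue), in WT EpiSCs, MD1 EpiSCs, MD1 MEFs and WT MEFs. The classes are apart by construction in WT EpiSCs; their medians are 2.07 and −0.81 in WT MEFs and 0.49 and −0.27 in MD1 EpiSCs.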

How the data were processed

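ChIP-seq libraries were prepared with the NEBNext Ultra II kit from fragments of 100-300 bp, per the labels' protocols. The submitters' processing notes name the tools cutadapt, BWA and SAMtools and the build mm9. Tool versions, the counting rule, the assignment of reads to alleles and the part of each gene that was counted are not given in the sources read here. For every ChIP library the authors deposited 1 log2 enrichment value per gene. Starts count from 0 in the deposited table (346 of 840 matched names have the RefSeq length when read so, 36 otherwise) and are printed counted from 1.

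With 1 constant per library, 100% of the values of both marks were ratios of whole numbers (denominators up to 30000, relative tolerance 1e-13), and 0% of the H3K9me3 values were after a random relative shift of 1e-06. The smallest numbers are used, so real reads may be multiples of them. Recovered separately, the denominators of the 2 marks were equal in 60.3% of 567 genes (1 a multiple of the other in 96.1%), against 0.903% of 554 genes between H3K9me3 of WT and of MD1 EpiSCs (1.62%), so the 2 marks share an input, which cancels from their difference. Intervals are exact (Clopper-Pearson, 95%).

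No test was run: 1 library per mark, and the replicate numbers pair nothing. Named genes were the 10 highest and 10 lowest differences and the 4 highest and 4 lowest in both marks among genes with an input number of at least 20, the ends of runs and steps, and members of 19 lists; some of these genes are not reported here. The genes, lists and rules were chosen with earlier results of these data known. Single genes against their neighbours, rank overlaps and the Ssx stretch were added after the values were seen. Tools were Python 3.11.15, NumPy 2.4.6, pandas 2.3.3, SciPy 1.17.1 and Matplotlib 3.10.9.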

Additional observations from a re-analysis of the deposited data

How the results depend on the processing

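Of 111 alternative values, 82 moved little, 28 moved and 1 reversed. Without centring, 152 genes leaned to H3K9me3 and 455 to H3K27me3 (with it 283 and 272); centred on the mean they were 250 and 324. Spearman's rho was −0.77 in place of Pearson's −0.62, and r without the lowest 10% of genes was −0.73. At 3-fold over input 5 genes were over it in neither mark. With the highest 25% of genes as the class, the H3K9me3 class had a median difference of 2.75 in WT MEFs. The Mage median reversed to 2.23 over its 6 genes with an input number of at least 20. Among 55 values of list medians 22 moved, 19 of them by the mean in place of the median (a shift of 0.64 for every list). The shift took the median of the silenced genes from 0.12 to −0.52, a change of sign that is counted here as moved. Without centring all list medians are lower by 2.26, and only those of the Ssx and Xlr families stay above 0. What depth limits is the size of the extremes: 40 genes rest on an H3K9me3 number of 3 or less and 30 on such an H3K27me3 number. The cause of these movements was not tested, beyond the fewer genes in the restricted sets. No paired analysis was possible because each mark has 1 library and no test was run.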
